A study of Mus musculus with 4 samples.

Results

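The products of Paneth cells were followed in small-intestinal organoids treated with an agonist of the liver X receptors (LXR). 10 genes were chosen by name: Lyz1, Mmp7, Ang4, Itln1, Mptx2, Mptx1 and the 4 alpha-defensins Defa17, Defa21, Defa24 and Defa30. They were 10 of 30284 genes with summed counts, and each of the 10 was among the 13602 genes that passed the filter on low counts. Organoids are epithelial cultures grown in Matrigel, here from the small-intestinal crypts of 2 male C57BL/6J mice, with no genetic change named in the labels. The labels give 9 weeks as the age of both mice, under a tag that refers to the start of DSS, a colitis-inducing agent, and name no DSS among the treatments of these cultures. From each animal, 1 culture received DMSO as the vehicle and 1 received GW3965, the agonist, at 2 µM, and RNA was taken after 6 h. Each treatment therefore had 2 libraries, 1 from each mouse, and nothing in the labels describes separate cultures within a mouse.

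Paneth cells are secretory cells at the base of small-intestinal crypts. Their granules carry antimicrobial proteins into the crypt lumen: lysozyme cuts bacterial cell walls, alpha-defensins (cryptdins in the mouse) disrupt bacterial membranes, and angiogenin 4 is an antimicrobial ribonuclease. Alpha-defensins are made as precursors, and matrilysin, the protease encoded by Mmp7, cuts the mouse precursors to the active peptides. Paneth cells also give Wnt, EGF-family and Notch signals to the neighbouring stem cells.

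Mouse alpha-defensins form a cluster of close copies on chromosome 8, and short reads tell them apart only where their sequences differ. The coding sequences of the 4 alpha-defensin members, taken from the GENCODE M21 transcripts (build GRCm38), each had 282 bases. They are shown 5′ to 3′, with capitals at the 60 positions where the 4 do not all have the same base.
Defa17: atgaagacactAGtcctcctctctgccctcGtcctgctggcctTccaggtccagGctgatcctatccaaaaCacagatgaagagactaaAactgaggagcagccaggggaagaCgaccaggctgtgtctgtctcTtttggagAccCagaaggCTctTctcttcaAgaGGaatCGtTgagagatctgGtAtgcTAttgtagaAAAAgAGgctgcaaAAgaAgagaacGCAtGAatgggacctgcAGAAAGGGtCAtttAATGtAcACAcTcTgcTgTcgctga
Defa21: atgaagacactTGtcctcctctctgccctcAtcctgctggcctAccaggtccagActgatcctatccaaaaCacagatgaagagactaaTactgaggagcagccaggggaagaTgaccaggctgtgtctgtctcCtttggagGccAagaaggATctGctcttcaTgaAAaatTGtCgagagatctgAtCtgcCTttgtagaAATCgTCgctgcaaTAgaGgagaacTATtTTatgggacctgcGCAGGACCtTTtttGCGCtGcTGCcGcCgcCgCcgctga
Defa24: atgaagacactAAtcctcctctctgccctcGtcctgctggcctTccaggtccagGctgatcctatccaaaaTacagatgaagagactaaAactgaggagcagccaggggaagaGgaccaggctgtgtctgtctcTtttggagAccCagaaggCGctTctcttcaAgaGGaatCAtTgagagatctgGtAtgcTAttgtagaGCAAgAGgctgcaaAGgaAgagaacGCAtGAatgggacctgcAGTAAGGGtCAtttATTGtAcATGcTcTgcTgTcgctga
Defa30: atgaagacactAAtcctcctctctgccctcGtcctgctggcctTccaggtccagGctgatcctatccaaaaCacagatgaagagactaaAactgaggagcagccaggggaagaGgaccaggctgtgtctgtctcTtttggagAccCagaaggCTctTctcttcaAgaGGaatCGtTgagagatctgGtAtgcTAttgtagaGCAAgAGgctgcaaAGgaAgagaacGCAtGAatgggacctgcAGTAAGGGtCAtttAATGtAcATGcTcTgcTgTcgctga

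The capitals crowd toward the 3′ end, which encodes the mature peptide: 9 of the 60 lie in bases 1 to 141 and 51 in bases 142 to 282. Defa24 and Defa30 differed at 4 of 282 bases, Defa17 and Defa30 at 8, and Defa17 and Defa24 at 12. Defa21 stood apart from the other members, with 52 to 60 differing bases. Outside the 10 genes, Defa3 had the same coding sequence as Defa17, with 0 substitutions, and Defa22 differed from Defa21 at 2 bases.

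A read of 50 bases, the length sequenced here, can be assigned to 1 gene where its bases occur in no other transcript. Of the 50-base windows of the Defa17 transcript, 92.0% also occurred in another gene, foremost Defa3. The shared part was 72.9% for Defa21 (Defa22), 52.4% for Defa30 (Defa24 first) and 28.1% for Defa24 (Defa30 first). The other members were more separable. Lyz1 shared 16.1% of its windows with Lyz2, the lysozyme gene of macrophages, Mptx1 and Mptx2 shared 17.9% and 18.0% with each other, Ang4 shared 4.55%, Itln1 0.972%, and Mmp7 0%. Estimated counts of Defa17 and Defa21 are thus a division of reads between near-identical copies, and sums over such copies are given below.

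Total estimated counts ranged from 16572359 to 19486547 per library. Abca1, a direct LXR target that serves here as the check of the treatment, had 0.462 and 1.75 normalised CPM (estimated counts scaled to a common library size) with DMSO in mouse 1 and mouse 2, and 42.8 and 60.4 with GW3965. The GW3965 library of mouse 1 stood apart: its 13 mitochondrial genes took 14.0% of gene counts, against 7.60 to 9.43% in the other 3 libraries. The summed level of 15 immune cell markers was 218 CPM in that library and 86.5 to 109 CPM in the others. Results below are therefore also given for each mouse and, in the closing section, without each library.

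Levels per transcript length, as the TPM values of the files, put the alpha-defensins first and Mptx1 last. Defa24 was the highest, at 22947 to 25635 TPM across the 4 libraries, followed by Defa30 at 10574 to 12011 TPM and Defa17 at 6304 to 7349 TPM. The ranges of these 3 genes did not overlap. Defa21 (3134 to 3960 TPM) and Lyz1 (2166 to 3169 TPM) overlapped, as did Mptx2 (41.7 to 126 TPM) and Mmp7 (49.3 to 113 TPM). Between those pairs lay Itln1 at 696 to 1010 TPM and Ang4 at 362 to 583 TPM, and Mptx1 was the lowest at 1.56 to 5.15 TPM. Together the 10 genes took 1.54% and 1.63% of gene counts in the DMSO and GW3965 libraries of mouse 1, and 1.27% and 1.31% in those of mouse 2. With these genes at such levels in each library, the cultures held RNA of the Paneth cell program. In bulk RNA, fewer Paneth cells and less RNA per Paneth cell cannot be told apart.

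**Figure D1:**
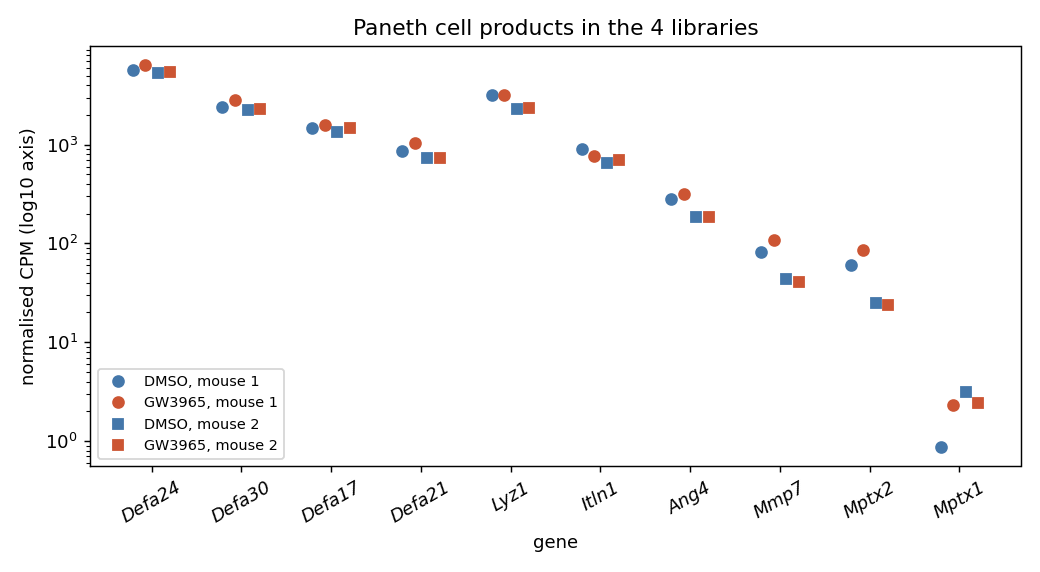
Normalised CPM (log10 axis) of the 10 Paneth cell products in each library, with colour for treatment and shape for mouse. Within each gene the circles of mouse 1 and the squares of mouse 2 separate, for example 3171 and 3169 against 2293 and 2346 CPM for Lyz1, while blue and red points intermix. For Defa17 the nearest circle and square, at 1477 and 1474 CPM, are almost level.

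Values below are normalised CPM, named in the order DMSO then GW3965 of mouse 1 and DMSO then GW3965 of mouse 2. Lyz1 (ENSMUSG00000069515.6, chr10:117287797-117292868), the lysozyme of Paneth granules, had 3171, 3169, 2293 and 2346 CPM. The libraries of mouse 1 were the higher pair, and the DMSO and GW3965 ranges overlapped. The edgeR log2 fold change of GW3965 against DMSO was 0.01 ± 0.29 (SE, 2 libraries against 2).

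Ang4 (ENSMUSG00000060615.5, chr14:51763878-51773590), the angiogenin with antimicrobial activity, had 285, 315, 187 and 183 CPM. GW3965 was the higher library in mouse 1 and the lower in mouse 2, and the treatments overlapped. Its log2 fold change was 0.08 ± 0.31.

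Itln1 (ENSMUSG00000038209.12, chr1:171518122-171535294) encodes intelectin 1, a lectin that binds microbial sugars. It had 896, 776, 653 and 695 CPM. Here GW3965 was the lower library in mouse 1 and the higher in mouse 2. Itln1 was the member with a negative estimate, at -0.08 ± 0.26.

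Mptx1 and Mptx2 encode mucosal pentraxins, secreted proteins of the family of C-reactive protein, and 92.0% of their 660 coding bases were identical. Mptx2 (ENSMUSG00000079180.4, chr1:173274382-173277777) had 59.9, 84.9, 25.2 and 23.7 CPM. The highest value was that of the GW3965 library of mouse 1, and both libraries of mouse 2 were far below those of mouse 1. The log2 fold change was 0.35 ± 0.52, with the widest spread among members above 10 CPM.

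Mptx1 (ENSMUSG00000026531.4, chr1:174330518-174332873) was close to the detection limit, with estimated counts of 17, 38, 59 and 46, or 0.873, 2.31, 3.13 and 2.41 CPM. In contrast to the other 9 genes, its libraries of mouse 1 were the lower pair. The log2 fold change was 0.24 ± 0.53.

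Mmp7 (ENSMUSG00000018623.9, chr9:7692090-7699585), the processing protease, had 82.7, 109, 43.3 and 40.4 CPM. The order of the libraries was that of Mptx2, with the GW3965 library of mouse 1 highest and that of mouse 2 lowest. Its log2 fold change was 0.25 ± 0.42.

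Among the alpha-defensins, Defa24 (ENSMUSG00000064213.5, chr8:21734494-21735471) had 5673, 6396, 5372 and 5475 CPM. Defa30 (ENSMUSG00000074444.4, chr8:21134642-21135598) had 2426, 2845, 2259 and 2276 CPM. In both genes the GW3965 library of mouse 1 was highest, the DMSO library of mouse 2 was lowest, and the treatments overlapped. The log2 fold changes were 0.10 ± 0.26 and 0.13 ± 0.26.

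Defa17 (ENSMUSG00000060208.5, chr8:21655780-21656735) had 1477, 1596, 1341 and 1474 CPM, with a change of 0.11 in mouse 1 and 0.14 in mouse 2 on the log2 scale. Summed with Defa3, its identical coding copy, the change was 0.16 and 0.07. Defa21 (ENSMUSG00000074447.2, chr8:21025545-21026516) had 855, 1034, 731 and 736 CPM. Its GW3965 library of mouse 1 was the highest and the libraries of mouse 2 were nearly equal. The log2 fold changes were 0.12 ± 0.25 for Defa17 and 0.16 ± 0.26 for Defa21.

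None of the 10 genes passed the test of GW3965 against DMSO (edgeR's quasi-likelihood test, Benjamini-Hochberg adjusted over all genes tested, threshold 0.05). The count was 0 of 10, where 8 of 13602 genes (0.0588%) were called, and each member's adjusted p was 1.00 when rounded. At an unadjusted p under 0.05 the count was also 0, and DESeq2, limma-voom and the fit with the mouse as a block each called 0 of 10. The block called 48 genes in all (0.353%). DMSO and GW3965 values overlapped for 10 of 10 members, while both GW3965 libraries lay above both DMSO libraries in 9.28% of genes tested and below them in 9.18%. For Defa17 the overlap rested on a near-tie, 1477 CPM (DMSO, mouse 1) against 1474 CPM (GW3965, mouse 2).

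These tests leave room for moderate changes. The 95% intervals of the fold change ran from 0.647 to 1.57 for Lyz1, from 0.717 to 1.61 for Defa24 and from 0.733 to 1.63 for Defa30. They were wider for Mmp7 (0.619 to 2.28) and Mptx2 (0.568 to 2.85). All are from the unblocked fit, in which a difference between the mice counts as spread. With the mouse as a block, the log2 fold changes were 0.16 ± 0.24 for Mmp7 and 0.21 ± 0.24 for Mptx2. That fit took its spread from genes of similar level. The 95% intervals are not adjusted for the number of genes tested.

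The estimates were above 0 for 9 of the 10 genes, of which Lyz1 fell below 0 with DESeq2 and without the filter on low counts, with a median log2 fold change of 0.13 beside 0.00 over all genes tested. The sign was shared by both mice for 4 of 10 genes, the 4 alpha-defensins. Within mouse 1 the median of the members was 0.20, and within mouse 2 it was 0.01. In mouse 1 the mitochondrial genes had a median of 0.92 and the immune markers 0.91, against -0.09 and -0.36 in mouse 2. Without the GW3965 library of mouse 1, the estimates were above 0 for 2 members and below 0 for 8, with a median of -0.13. Without the DMSO library of mouse 2 they were above 0 for 5 and below 0 for 5. Without the DMSO library of mouse 1 they were above 0 for 9 and below 0 for 1 (median 0.23). Without the GW3965 library of mouse 2 they were above 0 for 10 (median 0.25). Leaving out a library leaves 1 treatment with a single mouse, so in these unblocked fits the difference between mice enters the estimates. The part of the immune markers of the GW3965 library of mouse 1 in the members' values was not tested. With the mitochondrial genes removed before scaling, the count of members called was again 0.

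**Figure D2:**
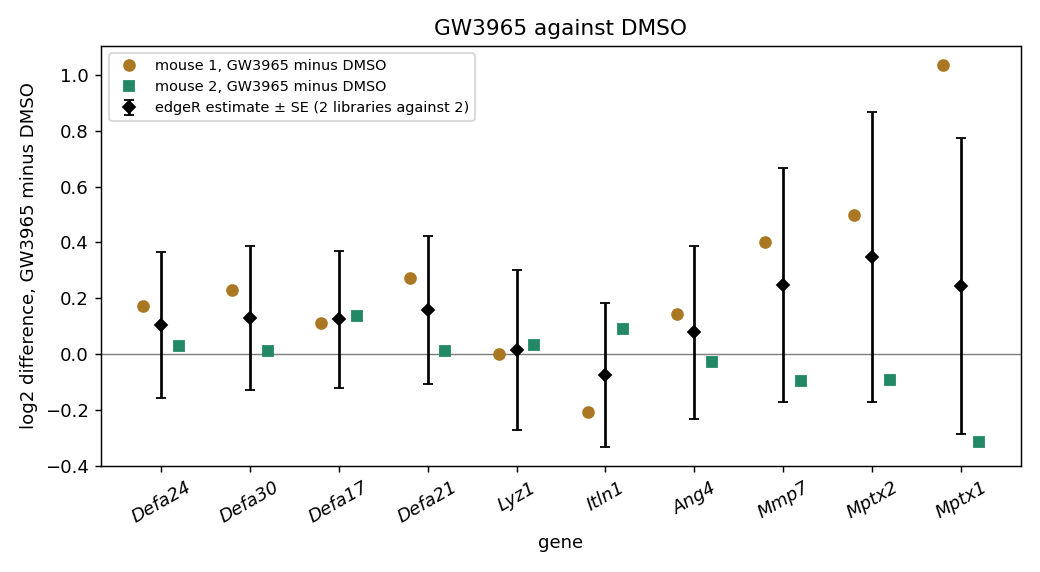
Log2 difference of GW3965 minus DMSO for each product: diamonds are edgeR estimates with their standard errors (2 libraries against 2), circles are mouse 1 and squares mouse 2. The interval of 1 SE reaches 0 for each gene, and circles and squares lie on opposite sides of 0 for 6 of the 10.

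The median log2 difference of the members was 0.33 between the mice (mouse 1 minus mouse 2), beside 0.00 over all genes tested. For 9 of the 10 genes both libraries of mouse 1 lay above both libraries of mouse 2, an arrangement that 20.2% of genes tested had, and for Mptx1 both lay below, as in 21% of genes. For Defa17 this rested on 1477 CPM (DMSO, mouse 1) against 1474 CPM (GW3965, mouse 2). As a ratio of mean CPM, Mptx2 was 2.96-fold higher in mouse 1. A fit with treatment as a covariate gave a log2 difference of 1.55 ± 0.24 (edgeR adjusted p = 1.01e-07). Mmp7 was 2.29-fold higher in mean CPM, with 1.18 ± 0.25 in the fit (edgeR adjusted p = 0.000507). These 2 of 10 members were called, in the direction in which 47 of 13602 genes (0.346%) were called, and 0 were called lower, where 46 genes (0.338%) were. In either direction the share was 0.684% of genes.

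Both differences were present under each treatment. Between the DMSO libraries the log2 difference was 1.23 for Mptx2 and 0.92 for Mmp7, and between the GW3965 libraries it was 1.82 and 1.42. Mptx1, the member lower in mouse 1, differed by -0.90 ± 0.45 (edgeR adjusted p = 0.970). Among members higher in mouse 1, Ang4 followed at 1.62-fold in mean CPM (log2 difference in the fit 0.69 ± 0.29) and Lyz1 at 1.37-fold (0.45 ± 0.31). Neither passed the threshold (edgeR adjusted p = 0.707 and 0.996). The 4 alpha-defensins had the smallest differences, from 0.13 ± 0.31 for Defa17 to 0.36 ± 0.31 for Defa21, together with Itln1 at 0.31 ± 0.30.

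These calls rest on a pooled estimate of the spread. With treatment in the fit, 1 residual degree of freedom was left, and the test took each gene's variance from genes of similar level. With the mouse as the single term, 0 of 10 members were called (0.0735% of genes), with edgeR adjusted p-values of 0.0633 for Mptx2 and 0.126 for Mmp7. Since 1 animal stood on each side, a difference between animals and a difference between their cultures cannot be told apart.

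The authors' deposited table of log2 CPM, which held 9 of the 10 members and not Mptx1, showed much less of this difference. There mouse 1 minus mouse 2 was 0.19 for Mptx2, 0.15 for Mmp7 and 0.05 for Lyz1, as means over the treatments in the authors' deposited table. The same differences computed from CPM of the library files were 1.57, 1.22 and 0.50. For this comparison those CPM were scaled to total gene counts alone, unlike the normalised CPM above. Over the 8451 genes in both sets, the SD of the difference between mice was 0.0331 in the authors' deposited table and 0.265 in the library files. The SD of the difference between treatments was 0.14 and 0.176. GW3965 minus DMSO was 0.08 for Defa24 in both sets, while 2 members differed in sign: Itln1 had 0.02 and Lyz1 0.04 in the authors' deposited table, against -0.08 and -0.004 from the library files. The sign of Lyz1 depended on the scaling. With normalised CPM it had -0.001 in mouse 1 and 0.033 in mouse 2, and its edgeR estimate was 0.01. No source used here names the step that brought the mice closer in that table.

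**Figure D3:**
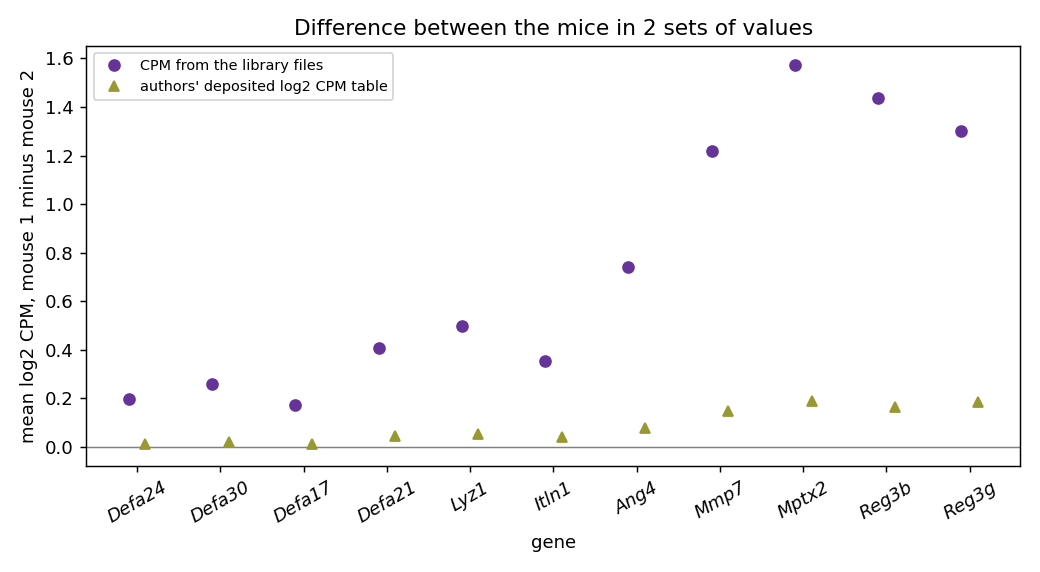
Mean log2 CPM of mouse 1 minus mouse 2 for 9 members and for Reg3b and Reg3g, from the library files (circles) and from the authors' deposited table (triangles). CPM of the library files are here scaled to total gene counts alone. The circles reach 1.57 for Mptx2, and the triangles stay at or below 0.19.

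The alpha-defensin family was then summed, which removes the division of reads between its copies. The annotation held 46 such genes, of which 28 had at least 10 summed counts and passed the filter, and 14 were at 0 in each library. The family took 10.2% of the TPM of the DMSO library and 9.67% of the GW3965 library of mouse 1, and 8.69% and 9.48% in mouse 2. TPM weighs short transcripts up, and in the same order the family took 2.28%, 2.47%, 1.96% and 2.03% of gene counts. Defa17, Defa21, Defa24 and Defa30 together gave 47.9 to 49.4% of the family's TPM, and Defa24 alone 25.1 to 26.4%. Defa24 ranked between 1 and 3 among all genes in TPM in each library, and 5 or 6 of the 20 highest genes were alpha-defensins.

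Family sums were 22142, 24732, 19925 and 20561 CPM in the order used above. The libraries of mouse 1 were the higher pair, with the GW3965 library highest, and the treatments overlapped. GW3965 against DMSO gave a log2 fold change of 0.11 ± 0.30 (edgeR adjusted p = 1.00), and -0.03 without the GW3965 library of mouse 1. Mouse 1 minus mouse 2 gave 0.21 ± 0.36 (edgeR adjusted p = 0.996). Of the 28 genes, 24 had a fold change above 0 and 4 below, with a median of 0.13, and in the unblocked edgeR test 0 were called or had an unadjusted p under 0.05. Treatments did not overlap for 1 of the 28, AY761185, with both GW3965 libraries above (9.28% of all genes, and 9.18% below). Its counts were 14, 16, 11 and 15. Mouse 1 lay above mouse 2 for 22 of the 28 genes (20.2% of all genes) and below for 1 (21%), and many of the 28 are copies that divide the same reads.

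Gm7849 was that 1 gene, and it was also the alpha-defensin with the most uneven counts: 1256, 15, 3245 and 6404. Its 50-base windows were all (100%) found in other genes, foremost Gm7861, and both genes have the same coding sequence over 351 bases. Gm7861 had 23734, 18621, 17876 and 17075 counts. Taken alone, Gm7849 was called in the comparison of mice (log2 difference -4.22 ± 0.39, edgeR adjusted p = 4.46e-24) and in the blocked comparison of treatments (edgeR adjusted p = 0.00235). The sum of both genes was 24990, 18636, 21121 and 23479 counts, with a highest CPM 1.15 times the lowest, against 368 times for Gm7849. For that sum the log2 difference of mice was 0.04 ± 0.32 and the fold change of GW3965 was -0.02 ± 0.25, with neither called.

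For the members with a close copy, no sum was called either. Defa17 with Defa3 gave 2184, 2448, 1906 and 1995 CPM and a log2 fold change of GW3965 of 0.12 ± 0.26. Defa21 with Defa22 gave 1684, 1975, 1415 and 1474 CPM and 0.15 ± 0.27. Between the mice, the sum with Defa3 differed by 0.25 ± 0.32, against 0.13 ± 0.31 for Defa17 alone, and the sum with Defa22 by 0.34 ± 0.32. Alpha-defensins were joined where at least 50% of the windows of 1 gene occurred in a single other gene. This left 11 groups of several genes and 18 single genes, among the latter Defa24 and Defa30. Of these 29 units, 17 passed the filter, 9 of them groups of several genes. None of the 17 was called for treatment, with or without the mouse block, or for mouse in edgeR, 0 had an unadjusted p under 0.05 for treatment, and 15 of 17 fold changes were above 0 (7 of 9 for the groups of several genes). The other alpha-defensin called between mice as a single gene was the pseudogene Defa-ps18, with counts of 70, 48, 0 and 30 (edgeR adjusted p = 0.000567), which shared 70.2% of its windows, foremost with Defa28.

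**Figure D4:**
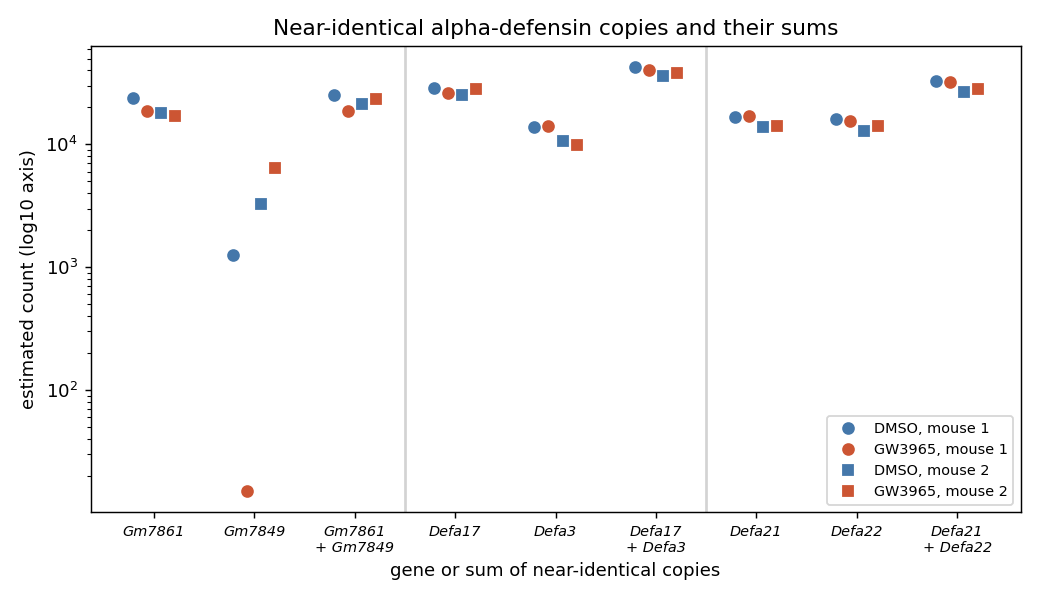
Estimated counts (log10 axis) in each library of 3 pairs of near-identical alpha-defensins and of the sums of each pair. Gm7849 runs from 15 to 6404 counts while its sum with Gm7861 runs from 18636 to 24990, and the pairs of Defa17 and Defa21 stay even alone and summed.

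Each product was carried by a single transcript model, with a second model of Itln1 at 0.0135% of that gene's counts. Of 11 models of the 10 genes, 10 passed the filter, and 0 were called or had an unadjusted p under 0.05 for GW3965 in edgeR, where 0 of 32357 transcripts (0%) were called and 846 had an unadjusted p under 0.05.

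Promoter letters were searched for motifs of factors known from Paneth cell biology and from LXR. Wnt signals, through TCF factors, are known to drive alpha-defensin and Mmp7 genes, so the TCF/LEF core CTTTGAT was sought on both strands in RefSeq promoters (GRCm38.p6, from 250 bases before to 50 after each start). Of the 10 genes, 8 had an entry, and Defa17 and Defa24 had none. The letters were found in 1225 of 32851 promoters (3.7%) and in the promoters of Defa21, Defa30 and Mmp7. Of 17 promoters of genes of the alpha-defensin family or with a Defa symbol, 13 had them (76.5%). Many of these genes are close copies, so the 17 may not be independent. The 250 bases before the start of Defa21 (chr8:21025295-21025544) and of Defa30 (chr8:21134400-21134649), both plus strand, are shown 5′ to 3′, with the match, which is on the minus strand, in capitals.
Defa21: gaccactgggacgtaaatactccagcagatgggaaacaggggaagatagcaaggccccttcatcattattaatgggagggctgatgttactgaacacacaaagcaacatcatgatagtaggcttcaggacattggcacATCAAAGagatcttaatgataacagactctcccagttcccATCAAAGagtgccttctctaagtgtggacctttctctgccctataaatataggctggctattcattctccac
Defa30: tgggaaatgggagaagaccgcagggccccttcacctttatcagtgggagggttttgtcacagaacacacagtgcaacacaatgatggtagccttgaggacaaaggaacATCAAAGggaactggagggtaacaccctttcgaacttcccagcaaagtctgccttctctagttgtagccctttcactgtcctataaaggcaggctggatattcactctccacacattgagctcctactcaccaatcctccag

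Defa21 thus had 2 matches, beginning 112 and 72 bases before the start, and Defa30 had 1, beginning 142 bases before it. Mmp7 had 1 match and 2 RefSeq starts, and the match began 4 bases after the earlier start, within the annotated gene, and 247 bases before the later start. The variant CTTTGAA (5.1% of promoters) was found in Mptx1, and the E-box CAGCTG (16.3%) in Lyz1. A TATA box, TATAAA, was in 16 of the same 17 alpha-defensin promoters and in 13.6% of all promoters. The LXR response element was searched as AGGTCA followed in the same direction by AGGTCA with 4 bases between. It was in 5 of 32851 promoters and in 0 of the members' 9 entries. Exact letters this rare cannot decide whether so few entries hold an LXR element, and no conclusion is drawn.

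Genes around the Paneth cell program were counted in the same way. Of 28 further Paneth cell products found in the files, 24 were tested and 0 were called for GW3965 by edgeR, with 13 fold changes above 0, 11 below, and 0 at an unadjusted p under 0.05. The smallest p belonged to Sntb1 (log2 fold change 0.85 ± 0.49), followed by Pla2g2f, a secreted phospholipase (-0.37 ± 0.25), the chemokine Ccl6 (0.29 ± 0.20) and the potassium channel Kcnn4 (-0.26 ± 0.21). Reg3b, a bactericidal lectin, had 777, 1194, 385 and 350 CPM, and its fold change was 0.41 ± 0.51.

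Between the mice, 3 of these 24 genes were called higher in mouse 1 (0.346% of all genes) and 1 lower (0.338%); 3 of the 4 are named after their values were seen. Reg3b differed by 1.39 ± 0.31 (edgeR adjusted p = 0.00185). Reg3g, its relative, had 557, 736, 268 and 268 CPM and differed by 1.26 ± 0.30 (edgeR adjusted p = 0.00765). Pla2g2a, a phospholipase gene that the annotation lists as a polymorphic pseudogene, differed by 0.87 ± 0.24 (edgeR adjusted p = 0.0480). Thbs1, which encodes thrombospondin, differed by -1.13 ± 0.26 (edgeR adjusted p = 0.00288). As with the members, 0 of these were called with the mouse as the single term.

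Factors of Paneth cell fate and granule secretion gave 0 calls in edgeR among 21 tested genes, with 12 fold changes above 0, 9 below and 0 at an unadjusted p under 0.05. Sox9, a factor required to form Paneth cells, had 81.4, 49.6, 73.1 and 69.1 CPM (log2 fold change -0.38 ± 0.21). Spink4, shared with goblet cells, had 403, 677, 496 and 453 CPM (0.33 ± 0.27), and the autophagy gene Atg16l1, needed for normal granules, had 40.1, 53.3, 40.1 and 41.3 CPM (0.24 ± 0.19). In each of these the GW3965 library of mouse 1 was the one that stood out.

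Niche signals gave 0 calls in edgeR among 9 tested of 13 genes, with 4 fold changes above 0, 5 below and 0 at an unadjusted p under 0.05. Wnt3, the Wnt ligand of Paneth cells, had 4.16, 4.26, 4.24 and 4.62 CPM (0.08 ± 0.29). The Notch ligand Dll4 had 8.58, 8.89, 11.9 and 10.6 CPM (-0.07 ± 0.25), and the receptor Fzd5 had 142, 145, 153 and 176 CPM (0.12 ± 0.22). Wnt9b, Wnt11, Egf and Rspo1 did not pass the filter on low counts.

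For GW3965, edgeR gave 0 calls, with or without the mouse block, among 9 goblet, 10 stem, 10 enterocyte, 10 enteroendocrine and 8 tuft cell markers, and 1 of these genes, a stem cell marker, had an unadjusted p under 0.05. Goblet cell markers, the closest secretory lineage, summed to 3127 and 4085 CPM with DMSO and to 4045 and 4489 CPM with GW3965, and 9 of 9 had a fold change above 0 (median 0.21), with 1 of 9 sharing its sign in both mice. The 2 highest of them differed in pattern. Tff3 had 835, 1409, 1133 and 1080 CPM, higher with GW3965 in mouse 1 and lower in mouse 2. Fcgbp had 827, 634, 1016 and 1448 CPM, lower with GW3965 in mouse 1 and higher in mouse 2. Stem cell markers had 1 fold change above 0 and 9 below (median -0.09), and enteroendocrine markers had 10 of 10 above 0 (median 0.07). Both mice shared the sign for 4 of 10 stem and 2 of 10 enteroendocrine markers. Medians in mouse 1 and mouse 2 were -0.23 and 0.07 for stem and 0.16 and -0.03 for enteroendocrine markers. Between the mice (mouse 1 minus mouse 2), the median was 0.33 for the 10 members, but 0.07 for the 24 further Paneth cell products, 0.01 for the fate and secretion genes and -0.19 for the niche signals. It was 0.14 for stem, -0.20 for goblet and -0.47 for enterocyte markers. Of 15 immune markers, led by Gzma at 61.0, 124, 52.4 and 39.8 CPM, 14 were tested and 2 were called higher in mouse 1 (0.346% of all genes), with a median of 0.40. Their part in the members' difference between mice was not tested.

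The pattern of Lyz1 over the 4 libraries was shared by many genes. With the root mean square difference of centred log2 CPM as the measure of likeness, the protein-coding genes closest to Lyz1 were Atad3a (0.0148), Ntmt1, Cluh, Tap2 and Klc2, and 178 of 8599 genes lay within 0.1. Closest to the alpha-defensin sum were Ttf2 (0.00592), Tmppe, Zmynd8, Exosc2 and Dcaf8, with 1180 of 8581 genes within 0.1. Such likeness rests on 4 libraries and describes their deviations from each gene's mean alone.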

How the data were processed

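Poly-A RNA was sequenced as single-end reads of 50 bp, per the labels' protocols. The extraction text speaks of colon; the tissue label and series design, which name small-intestinal organoids, were followed. Per the file headers, the authors deposited estimated counts and TPM at transcript level, made with kallisto and build mm10 per the submitters' processing notes, which also name CASAVA 1.7. They also deposited log2 CPM for 8524 genes, whose scaling no source used here names. Nor do the sources name the annotation release or the use of strand.

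Of 88198 transcripts, 86119 (97.6%) matched GENCODE M21, giving 30284 genes whose summed values were rounded. The unmatched rest held 0.685 to 0.854% of counts and stayed out. Genes were tested with edgeR 4.0.16 (R 4.3.3; filterByExpr, TMM, glmQLFTest, adjusted p under 0.05), DMSO against GW3965 unblocked (residual degrees of freedom 2, prior 7.78). The labels pair libraries by mouse, and the deviations of a pair correlated at 0.0925. DESeq2 1.42.0, limma-voom 3.58.1, the mouse block, other scaling, filters and left-out libraries were alternatives. Standard errors were derived from the F statistic. Libraries of a treatment were not duplicates (chi-square over degrees of freedom 16.5 and 72). P-values of the unblocked edgeR test combine the spread between 2 libraries a group with a spread pooled from other genes. With a mouse term beside treatment (residual degrees of freedom 1, prior infinite) they rest on the pooled spread. Reads carry no molecular identifiers.

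The members and gene lists were chosen with earlier results of these data known. Named genes were the 10 members, alpha-defensins with at least 10 counts, and some of the 6 genes of each Paneth list with the smallest p. Also named were the 5 nearest genes in pattern and, for goblet and immune cells, markers among the 2 highest. Reg3g, Pla2g2a and Thbs1 were named for their difference between mice, after their values were seen.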

Additional observations from a re-analysis of the deposited data

Results flagged for a closer look

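For 6 of the 10 Paneth cell products the difference of GW3965 minus DMSO had opposite signs in the 2 mice, and with 1 library per treatment and mouse this was not tested. Of all genes tested, 66.5% did not share their sign in both mice, so the share among the members is near that of all genes. On the log2 scale the difference was 0.401 in mouse 1 and -0.098 in mouse 2 for Mmp7, and 0.499 and -0.091 for Mptx2. Ang4 had 0.145 and -0.03, and Mptx1 1.036 and -0.317. Itln1 went the other way, at -0.208 and 0.089. For Lyz1 both values were close to 0, at -0.001 and 0.033.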

How the results depend on the processing

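The count of members called for GW3965 was 0 of 10 in each of the 7 other analyses (DESeq2, limma-voom, DESeq2 size factors in edgeR, no mitochondrial genes, no filter on low counts, the replicate block by mouse, and the authors' rounded series-wide table) and without each library. The block changed no call of a member; the family sum was 0.102 with it. The log2 fold change of Lyz1 turned to -0.000737 with DESeq2 and -0.00154 without the filter. Leaving out 1 library at a time, with the lone library assumed to vary like the others, gave ranges that cross 0 for the family sum (-0.0331 to 0.233), Lyz1 (-0.22 to 0.268), Mmp7 (-0.64 to 0.793), Ang4 (-0.366 to 0.415), Itln1 (-0.291 to 0.173), Mptx2 (-0.849 to 1.11), Mptx1 (-0.401 to 1.42), Defa21 (-0.108 to 0.382), Defa24 (-0.0127 to 0.211) and Defa30 (-0.0415 to 0.279), and 0.0497 to 0.197 for Defa17. Between mice, 2 members were called in each of the other analyses except the mouse term alone, chosen after seeing the data, which called 0; the cause was not tested. Leaving out a library there leaves no residual degree of freedom. The sums over near-identical copies, limma-voom and removal of mitochondrial genes for the mice were also chosen after seeing the data. The depth limits Mptx1, at 17 to 59 counts, most.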
